A study of Homo sapiens with 8 samples.

Results

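The 10 genes described here encode the core machinery of non-homologous end joining (NHEJ): PRKDC, XRCC5, XRCC6, DCLRE1C, POLL, POLM, XRCC4, LIG4, NHEJ1 and PAXX. They were taken by gene symbol from a table of 61906 genes, and each symbol was present in 1 row. All 10 passed the filter on low values that left 14478 genes for testing. The question asked of them was how the level of each mRNA differed between LLY-283 treated and vehicle treated glioblastoma (GBM) cells.

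NHEJ is the pathway that rejoins the ends of a DNA double-strand break without a homologous template, and it works through most of the cell cycle. The Ku70/Ku80 ring (XRCC6 and XRCC5) slides onto each end and recruits the catalytic subunit of DNA-dependent protein kinase (PRKDC). The nuclease Artemis (DCLRE1C) and the polymerases lambda and mu (POLL and POLM) trim or fill ends that cannot be joined directly. The XRCC4-ligase IV complex seals them, with XLF (NHEJ1) and PAXX holding the ends together. In GBM the pathway is known mainly for the repair of breaks left by radiotherapy.

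The samples were cultures of U251, an established human GBM line, given as wild type in genotype. The vehicle group received DMSO and the treated group received LLY-283, a small-molecule inhibitor of the arginine methyltransferase PRMT5, at 100 nM, both for 24 h. Each group had 4 libraries labelled as biological replicates, made from mRNA captured on oligo-dT beads. Levels were in TPM, transcripts of a gene per 1000000 transcripts of the library, corrected for transcript length, so that levels of different genes can be compared. A TPM value does not carry the read depth, which is unknown here, and no counting interval can be given. A lower level in a bulk library may come from fewer expressing cells or from less RNA per cell, and these cannot be told apart.

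Between 24042 and 24757 genes were above 0 TPM in each library. Transcripts of the mitochondrial genome made up 10.15% to 11% of 7 libraries and 7.19% of LLY-283 replicate 4, which stood apart. That library held the highest or the lowest value of its group for 8 of the 10 NHEJ genes, against 3 to 6 of 10 in each of the other libraries. Among glial markers, VIM averaged 4301 TPM and GFAP 809.5 TPM in vehicle libraries, while PTPRC, CD3E, EPCAM, CDH1, PECAM1 and CDH5 did not exceed 0.28 TPM in any library and CD68 ranged from 0.95 to 2.93 TPM. Of the 6 glial and GBM markers, GFAP (679.9 TPM after LLY-283), NES (482.8 to 428.8 TPM) and SOX2 (103.3 to 85.62 TPM) fell (limma, adjusted p = 0.00082, 0.000731 and 0.000349). CD44 rose from 1576 to 1700 TPM (limma, adjusted p = 0.0168), and VIM and S100B were not called (limma, adjusted p = 0.195 and 0.0781). The part of these marker differences, and of the mitochondrial share, in the results below was not tested, except where values without LLY-283 replicate 4 or without mitochondrial genes are given.

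The NHEJ mRNAs spanned a wide range of levels. In vehicle libraries XRCC6 was the most abundant at 458.8 ± 8.28 TPM (SD, n = 4), followed by XRCC5 at 314.3 ± 4.91 TPM and PRKDC at 131.2 ± 7.28 TPM. These genes of the DNA-end-binding kinase stood at the 98.0th, 96.9th and 91.8th percentile of all genes tested. Together they held 88.7% to 89.0% of the summed TPM of the 10 genes in vehicle libraries and 89.5% to 90.7% in LLY-283 libraries. PAXX, POLM, POLL, XRCC4 and NHEJ1 came next, with vehicle means from 39.15 TPM down to 10.11 TPM. The lowest were LIG4 at 5.58 ± 0.344 TPM and DCLRE1C at 3.77 ± 0.221 TPM, at the 25.2nd and 19.3rd percentile. Within the vehicle group no library value overlapped between neighbours in this order. After LLY-283 the order was the same except for XRCC4 and NHEJ1, whose library values then overlapped.

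Against vehicle, LLY-283 treated cells had higher XRCC5 and XRCC6 mRNA and lower XRCC4 mRNA, each by less than 1.5-fold. A gene was called when limma, fitted on log2(TPM + 0.1) across all genes tested, gave an adjusted p under 0.05. By this rule 2 of the 10 genes were increased, where 8.61% of all genes were, and 1 was decreased, where 17.6% were. With the added demand of a change over 1.5-fold, 0 of the 10 were called, where 3.87% of all genes were; at an unadjusted p under 0.05, 4 of the 10 passed, where 38.6% of all genes did. The groups did not overlap in 3 of the 10 genes, compared with 29.2% of all genes. The median log2 fold change was -0.041 over the 10 genes and -0.047 over all genes tested. Of all genes, 1247 were increased and 2541 decreased, and scaling by the median of ratios turned this split to 1927 and 1866.

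**Figure D1:**
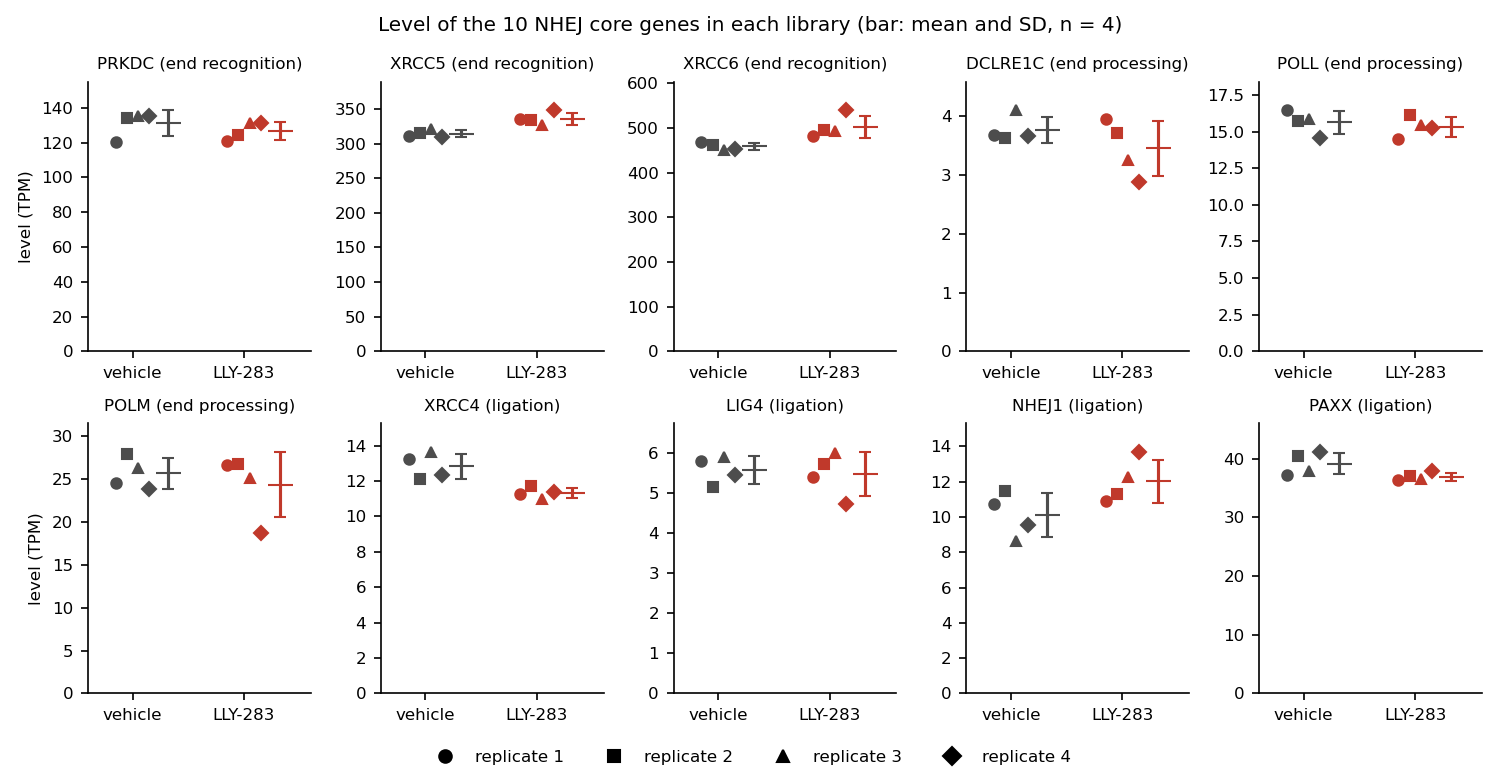
Level of each NHEJ core gene in TPM (y axis, from 0, scaled per gene) in the 4 vehicle (grey) and 4 LLY-283 (red) libraries. Marker shapes give the replicate number and bars the mean and SD; only in the panels of XRCC5, XRCC6 and XRCC4 do the groups not overlap.

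Among the genes of end recognition, both Ku subunits rose and PRKDC was not called. XRCC5 (ENSG00000079246, GRCh38 chromosome 2, 216107464 to 216206303, plus strand) encodes Ku80. Its level was 311.39, 315.76, 320.61 and 309.61 TPM in vehicle replicates 1 to 4, and 335.61, 333.26, 327.29 and 347.76 TPM in LLY-283 replicates 1 to 4. The groups did not overlap, and the lowest LLY-283 library lay above the highest vehicle library. The mean rose from 314.3 ± 4.91 to 336.0 ± 8.60 TPM, a log2 fold change of 0.10 (SE 0.0266) or 6.86% with a 95% interval of 2.53% to 11.4% (limma, adjusted p = 0.0267).

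XRCC6 (ENSG00000196419, chromosome 22, 41621163 to 41664048, plus strand) encodes Ku70. It was measured at 469.03, 461.83, 451.25 and 452.9 TPM in the vehicle libraries and at 481.71, 496.07, 491.77 and 538.89 TPM in the LLY-283 libraries. The groups again did not overlap, and LLY-283 replicate 4 was the highest. The mean rose from 458.8 ± 8.28 to 502.1 ± 25.2 TPM, by 0.13 on the log2 scale (SE 0.0362) or 9.36% with an interval of 3.37% to 15.7% (limma, adjusted p = 0.0277). Without LLY-283 replicate 4 the log2 fold changes were 0.079 for XRCC5 and 0.095 for XRCC6, both still called by limma (adjusted p = 0.0196 and 0.0101). With mitochondrial genes left out and the libraries rescaled they were 0.087 and 0.120 (limma, adjusted p = 0.0148 and 0.00904).

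The calls on the Ku genes were close to the threshold. XRCC5 kept its call under 10 of 20 alternative settings and XRCC6 under 13 of 20, with the direction unchanged in all. XRCC5 was no longer called by limma when vehicle replicate 1, 2 or 4 or LLY-283 replicate 1 or 2 was left out, with adjusted p from 0.0545 to 0.0788. For XRCC6 this held without vehicle replicate 2, 3 or 4 or LLY-283 replicate 2, with adjusted p from 0.0536 to 0.0737.

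PRKDC (ENSG00000253729, chromosome 8, 47773111 to 47960178, minus strand) encodes the kinase subunit that Ku brings to the end. Its level was 120.34, 133.98, 135.07 and 135.47 TPM in vehicle libraries and 120.72, 124.14, 131.18 and 131.21 TPM in LLY-283 libraries. The groups overlapped, and vehicle replicate 1 lay apart from the other vehicle libraries. The log2 fold change was -0.05 (SE 0.0461), with an interval of the difference of -9.99% to 3.89% (limma, adjusted p = 0.475).

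**Figure D2:**
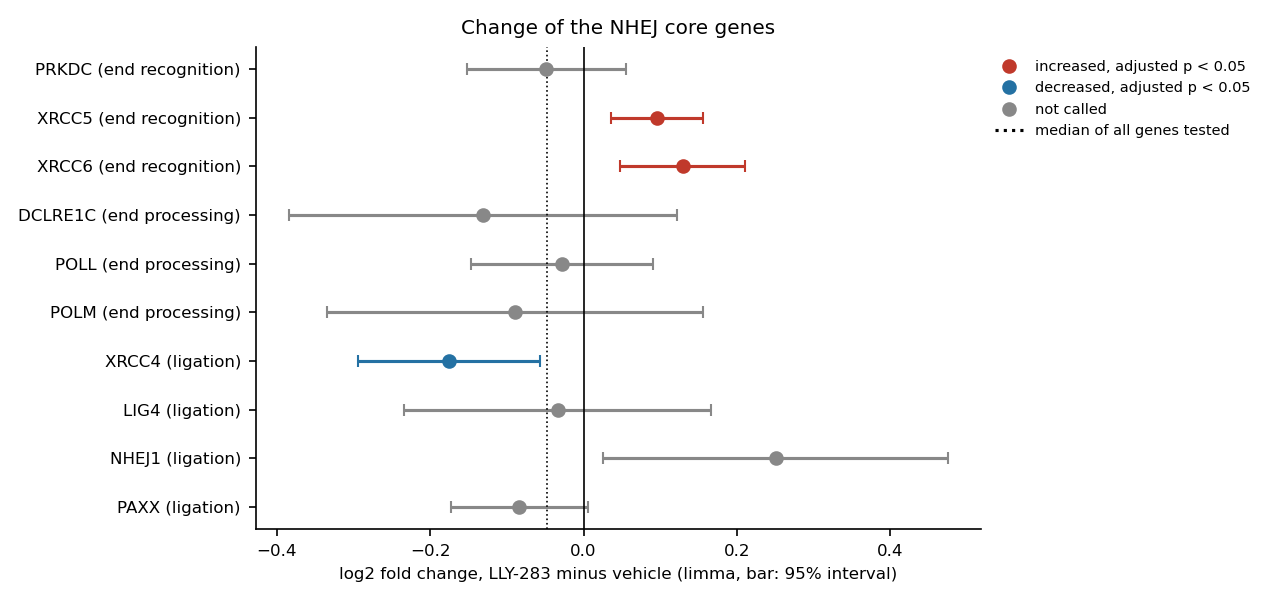
Log2 fold change of each NHEJ core gene, LLY-283 minus vehicle (x axis), from limma with its 95% interval (bars), by role in the pathway. XRCC5 and XRCC6 lie to the right of 0 and XRCC4 to the left with an adjusted p under 0.05, while NHEJ1 has the highest value, 0.25, and a wide interval.

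None of the 3 genes of end processing was called (0 of 3 by limma), where 8.61% of all genes were increased and 17.6% decreased. At an unadjusted p under 0.05, 0 of 3 passed, against 2 of 3 genes of end recognition, 2 of 4 of ligation and 38.6% of all genes. DCLRE1C (ENSG00000152457, chromosome 10, 14897359 to 14954432, minus strand) encodes Artemis, the nuclease that opens hairpins and trims overhangs. Its level was 3.69, 3.63, 4.1 and 3.66 TPM in vehicle libraries and 3.95, 3.72, 3.25 and 2.89 TPM in LLY-283 libraries. The LLY-283 values reached both above and below most vehicle values, and the interval of the difference ran from -23.4% to 8.77% (limma, log2 fold change -0.13, adjusted p = 0.425).

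POLL (ENSG00000166169, chromosome 10, 101578882 to 101588270, minus strand), the polymerase that fills short gaps at paired ends, was at 16.44, 15.73, 15.84 and 14.56 TPM in vehicle libraries. In LLY-283 libraries it was at 14.48, 16.15, 15.44 and 15.27 TPM. The ranges were nearly the same, and the interval of the difference was -9.68% to 6.48% (limma, adjusted p = 0.732).

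POLM (ENSG00000122678, chromosome 7, 44072062 to 44082530, minus strand), the polymerase that can extend ends with little or no pairing, was at 24.53, 27.91, 26.23 and 23.88 TPM in vehicle libraries. In LLY-283 libraries it was at 26.64, 26.71, 25.12 and 18.72 TPM. The low value was that of LLY-283 replicate 4, and the other libraries of that group lay inside the vehicle range. The log2 fold change was -0.09 (limma, interval -20.7% to 11.4%, adjusted p = 0.585), and 0.031 without that library.

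Among the 4 genes of ligation, XRCC4 fell and LIG4, NHEJ1 and PAXX were not called. XRCC4 (ENSG00000152422, chromosome 5, 83077498 to 83353787, plus strand) encodes the scaffold that binds and stabilises ligase IV. Its level was 13.26, 12.11, 13.62 and 12.34 TPM in vehicle libraries and 11.26, 11.7, 11.01 and 11.39 TPM in LLY-283 libraries. Every LLY-283 library lay below every vehicle library. The mean fell from 12.83 ± 0.723 to 11.34 ± 0.287 TPM, a log2 fold change of -0.18 (SE 0.053) or -11.5%, with an interval of -18.5% to -3.85% (limma, adjusted p = 0.0369).

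The XRCC4 call was kept under 9 of 20 alternative settings, with the direction unchanged in all. It was lost by limma without vehicle replicate 1, 3 or 4 or LLY-283 replicate 1, 2 or 3, with adjusted p from 0.0522 to 0.0916. Under quantile normalization the log2 fold change was -0.081 (limma, adjusted p = 0.298). Without LLY-283 replicate 4 it was -0.178 and without mitochondrial genes -0.185 (limma, adjusted p = 0.0474 and 0.0371).

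LIG4 (ENSG00000174405, chromosome 13, 108207439 to 108218368, minus strand), the ligase itself, was at 5.81, 5.16, 5.91 and 5.45 TPM in vehicle libraries and at 5.4, 5.72, 6.01 and 4.73 TPM in LLY-283 libraries. The LLY-283 libraries included both the highest and the lowest of the 8 values. The interval of the difference was -15.0% to 12.3% (limma, log2 fold change -0.03, adjusted p = 0.812).

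NHEJ1 (ENSG00000187736, chromosome 2, 219069355 to 219160869, minus strand) encodes XLF, which forms filaments with XRCC4. It was at 10.75, 11.49, 8.64 and 9.57 TPM in vehicle libraries and at 10.89, 11.3, 12.24 and 13.66 TPM in LLY-283 libraries. Vehicle replicate 2 lay above 2 of the LLY-283 libraries, so the groups overlapped. The log2 fold change was 0.25 (SE 0.1), the highest of the 10 genes, with an interval of 1.74% to 39.1% before adjustment and a limma adjusted p of 0.0969. It passed the threshold under quantile normalization alone of the 20 alternatives (limma, 0.352, adjusted p = 0.0495).

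PAXX (ENSG00000148362, chromosome 9, 136992422 to 136993984, plus strand) encodes a small XRCC4 paralogue that binds Ku. It was at 37.26, 40.36, 37.92 and 41.04 TPM in vehicle libraries and at 36.4, 36.99, 36.43 and 37.81 TPM in LLY-283 libraries. Only the highest LLY-283 library reached into the vehicle range. The log2 fold change was -0.08 (limma, interval -11.3% to 0.393%, adjusted p = 0.154).

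**Figure D3:**
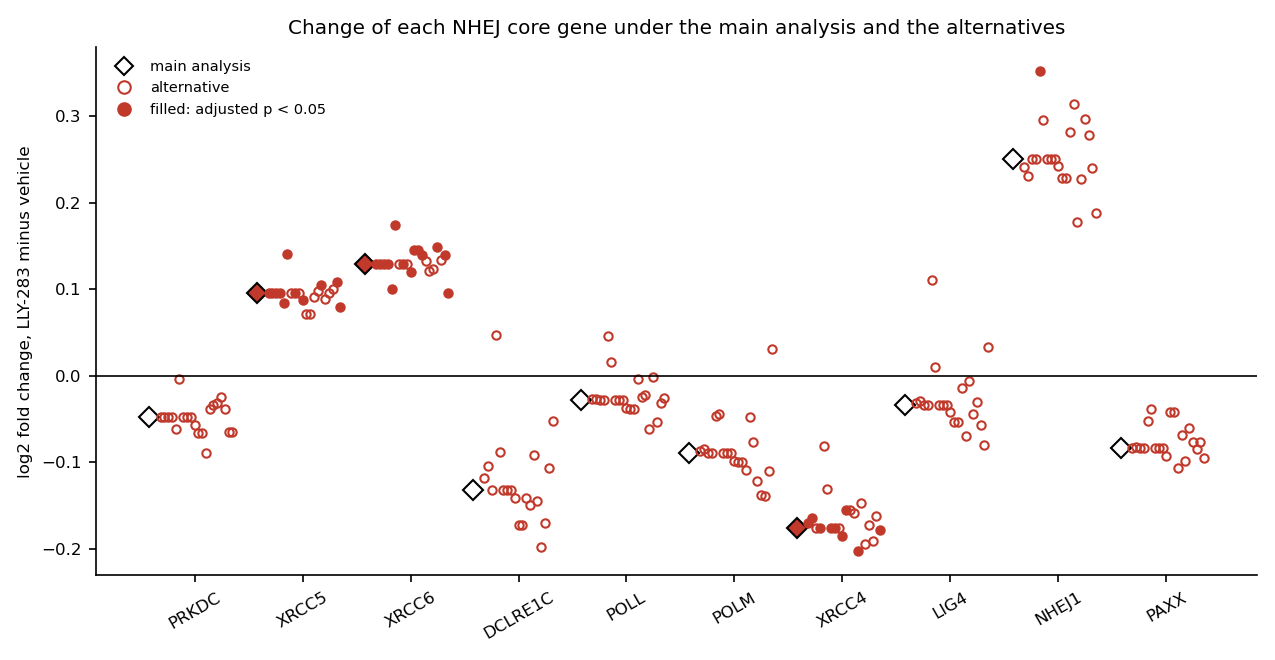
Log2 fold change of each NHEJ core gene, LLY-283 minus vehicle (y axis), in the main analysis (diamond) and under each alternative setting (circles, filled where the limma adjusted p is under 0.05). XRCC5 and XRCC6 stay above 0 and XRCC4 below 0 at every setting, with between 9 and 13 of 20 alternatives filled.

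Because partners in a complex are needed together, 6 ratios between NHEJ mRNAs were compared within each library. A ratio within a library does not depend on how the library was scaled. XRCC6 stood to XRCC5, its partner in the Ku ring, at 1.46 ± 0.0405 in vehicle and 1.49 ± 0.047 in LLY-283 libraries (SD, n = 4; exact permutation test, two-sided, p = 0.343, adjusted over the 6 ratios 0.514). PRKDC stood to XRCC5 at 0.417 ± 0.0218 and 0.378 ± 0.0172, which differed by -0.14 on the log2 scale with overlapping groups (exact permutation p = 0.0571, adjusted 0.171). The vehicle library that reached into the LLY-283 range was replicate 1, at 0.3865. With 1 library left out the difference ranged from -0.181, without vehicle replicate 1, to -0.121.

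In the ligation complex the ratio of NHEJ1 to XRCC4 was the one whose groups did not overlap. It was 0.8107, 0.9488, 0.6344 and 0.7755 in vehicle libraries and 0.9671, 0.9658, 1.112 and 1.199 in LLY-283 libraries. The means were 0.792 ± 0.129 and 1.06 ± 0.115, a log2 difference of 0.43. The exact permutation p of 0.0286 is the smallest that 4 against 4 libraries can give, and adjusted over the 6 ratios it was 0.171, a value the design fixes for a single ratio at that limit.

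LIG4 to XRCC4 was 0.435 ± 0.0067 in vehicle libraries, with little spread, and 0.482 ± 0.0535 in LLY-283 libraries (exact permutation p = 0.143, adjusted 0.286). PAXX to XRCC4 was 3.06 ± 0.307 and 3.26 ± 0.0737 (exact permutation p = 0.429, adjusted 0.514). POLM to POLL was 1.64 ± 0.116 and 1.59 ± 0.258 (exact permutation p = 0.771, adjusted 0.771). So 0 of the 6 ratios passed after adjustment and 1 passed before it. With 4 libraries a group, at least 4 of the 6 ratios would have to reach the smallest p for any to pass, so the adjusted values say little about a single ratio.

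**Figure D4:**
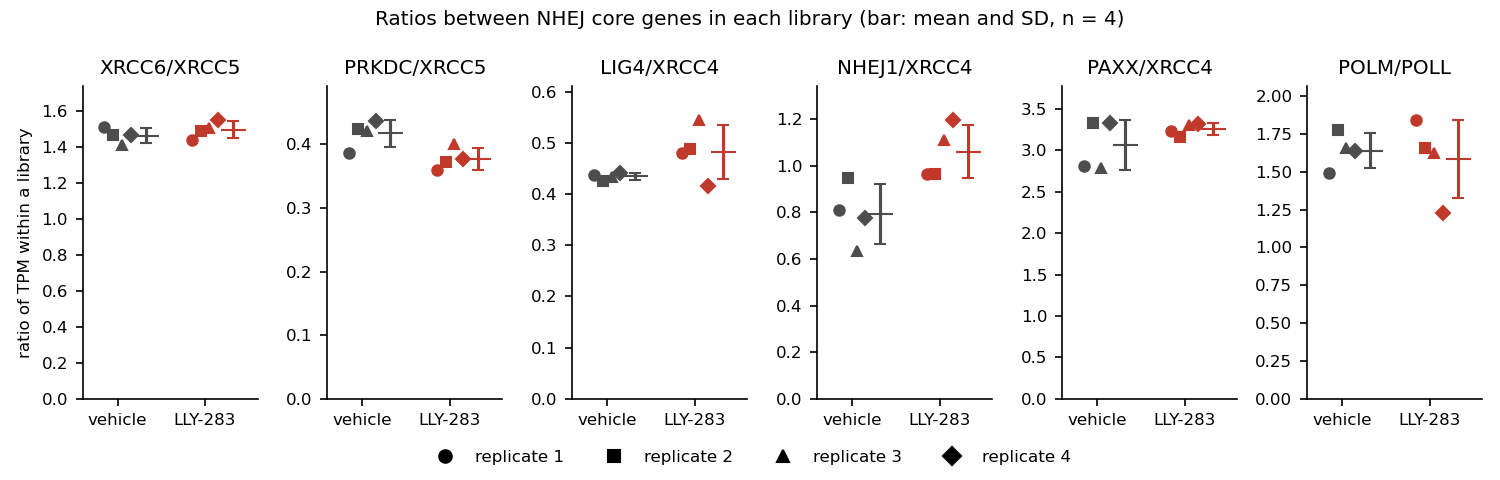
Ratio of TPM between pairs of NHEJ genes within each library (y axis, from 0, scaled per ratio) in the 4 vehicle (grey) and 4 LLY-283 (red) libraries, with the mean and SD as bars. The ratio of NHEJ1 to XRCC4 is the one whose groups do not overlap.

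PRKDC, XRCC4, XRCC6 and LIG4 share their start region with a gene on the opposite strand, and DCLRE1C and POLL overlap one along the gene body. The submitters' sources do not say whether reads were counted by strand, so values of overlapping genes are uncertain. PRKDC starts 7 bases from MCM4, a subunit of the replicative helicase, which was at 146 ± 9.44 TPM in vehicle and 134 ± 3.11 TPM in LLY-283 libraries (limma, log2 fold change -0.13, SE 0.0451, adjusted p = 0.0659). The MCM4 groups did not overlap (136.4 to 154.89 against 129.1 to 136.12 TPM), which held for 29.2% of all genes. MCM4 passed the threshold under 4 of 20 alternatives, among them quantile normalization and leaving out vehicle replicate 4 (limma, adjusted p from 0.0256 to 0.0409). XRCC4 overlaps TMEM167A by 366 bases at their starts, and TMEM167A was at 106 ± 4.53 and 102 ± 4.16 TPM (limma, -0.05, adjusted p = 0.362), while XRCC4 fell.

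DCLRE1C overlaps SUV39H2, a histone H3 lysine 9 methyltransferase, by 6957 bases. SUV39H2 fell from 10.9 ± 1.08 to 8.51 ± 0.636 TPM (limma, log2 fold change -0.35, SE 0.0843, adjusted p = 0.0145), while DCLRE1C was not called. The SUV39H2 call was lost under quantile normalization alone of the 20 alternatives (limma, -0.243, adjusted p = 0.064). POLL lies over DPCD for 9389 bases, and DPCD was at 40.9 and 40.6 TPM (limma, -0.01, adjusted p = 0.906). NHEJ1 is overlapped on its own strand for 85541 bases by ENSG00000280537, a gene listed at 0.78 and 0.882 TPM.

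The other pairs are divergent with few bases between the starts. XRCC6 rose while DESI1, a desumoylating peptidase whose start lies 120 bases away, fell from 27.8 ± 3.64 TPM (23.4 to 31.04) to 20.9 ± 1.64 TPM (18.46 to 22.07), and the DESI1 groups did not overlap. The DESI1 log2 fold change was -0.41 (SE 0.0948; limma, adjusted p = 0.0127), and it kept its call under all 20 alternatives, from -0.486 to -0.349. LIG4 starts 24 bases from ABHD13, which was at 3.94 ± 0.186 and 3.19 ± 0.262 TPM (limma, -0.30, SE 0.0923, adjusted p = 0.042), with a call that was lost under 12 of 19 alternatives. The groups of ABHD13 and SUV39H2 did not overlap either. Of all genes, 29.2% had groups that did not overlap and 17.6% were called decreased.

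The stretches between the starts of these divergent pairs are shown because XRCC6 and DESI1 moved in opposite directions and LIG4 was not called while ABHD13 fell. They come from the RefSeq promoter table on GRCh38.p14, with starts from GENCODE 44, and run 5′ to 3′ on the strand of the NHEJ gene. The first is chr22:41621045-41621162, plus strand, 118 of the 119 bases between DESI1 and XRCC6. The second is chr13:108218369-108218391, minus strand, all 23 bases between ABHD13 and LIG4. Capitals mark GGGCGG, the GC box.
XRCC6: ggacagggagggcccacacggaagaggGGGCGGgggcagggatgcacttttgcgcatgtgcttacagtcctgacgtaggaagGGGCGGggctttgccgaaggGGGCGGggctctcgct
LIG4: tccgagcatgcgcagaagccgct
The XRCC6 stretch held GGGCGG 3 times and 8 CpG dinucleotides, with 67.8% G or C. The LIG4 stretch held 3 CpG dinucleotides and no GGGCGG.

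RefSeq promoter windows, from 250 bases before to 50 after a start, were found for 8 of the 10 genes; PRKDC and XRCC5 had none. Motifs were searched on both strands as written, and a match is a description of letters only. The letters CCGGAAG, a core read by ETS-family factors, were present for 6 of the 8 genes and for 12.2% of all genes with a window. GGGCGG was present for 7 of 8 genes, against 48.3% of all genes, and CCAAT for 6 of 8, against 39.7%. TATAAA was present for 1 of 8 genes, against 14% of all. The palindrome of NRF1 sites was present for 0 of 8 genes, against 1.52% of all. The 8 genes had 15 windows, some overlapping, and all 27305 genes had 35116, so a gene here had more windows in which to match. By window, CCGGAAG was in 10 of 15 against 10.3%, GGGCGG in 10 of 15 against 45%, CCAAT in 8 of 15 against 34.6% and TATAAA in 1 of 15 against 11.5%. Apart from a DCLRE1C window with 47% G or C and 11 CpG dinucleotides, the windows here held 60.7% to 75.7% and 16 to 38. The medians over all windows were 58.7% and 14. The part of this composition in the matches was not tested.

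Over the 8 libraries, the genes whose log2 levels followed those of the called NHEJ genes most closely were named by Pearson's r, as a description. These values mix the difference between groups with differences between libraries. They are the highest among the 14478 genes tested, and picking the highest over 8 libraries by itself gives values near the maximum. For XRCC5 they included IK (r = 0.990) and NIPSNAP1 (0.988). For XRCC6 they were GNAI3 (r = 0.991), TIMM23 (0.982) and KRT81 (0.981), where TIMM23 has a near-identical copy, TIMM23B. For XRCC4 they were CNTLN (r = 0.988), EEF1AKMT2 (0.984) and FAM102B (0.981).

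Beyond the core, 36 genes that prepare, protect or signal breaks or join them by another route were listed, and 34 were tested. Of these 2 rose and 6 fell (limma, adjusted p under 0.05), beside 8.61% and 17.6% of all genes; without LLY-283 replicate 4, 10 fell, beside 18.5% of all genes. Their median log2 fold change was -0.079. DNTT, the template-free polymerase of lymphocytes, was at 0 TPM in every library, and APLF averaged 0.66 and 0.515 TPM; neither was tested.

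Accessory end processing held 0 increased and 3 decreased genes of 8 tested, beside 8.61% and 17.6% of all genes. TDP2, which removes topoisomerase II from DNA ends, fell from 52.05 ± 2.21 to 45.75 ± 0.914 TPM (limma, log2 fold change -0.18, SE 0.0375, adjusted p = 0.00677). CYREN, a regulator that binds Ku, fell by 0.17 on the log2 scale, and SETMAR by 0.18, both named after their values were seen (limma, adjusted p = 0.00682 and 0.0361).

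End protection held 1 increased and 1 decreased gene of 11, beside 8.61% and 17.6% of all genes. Both called genes belong to the CST complex that fills in resected ends. STN1 fell from 15.00 ± 0.741 to 11.85 ± 1.27 TPM (limma, log2 fold change -0.34, SE 0.0776, adjusted p = 0.0112). It is overlapped on its own strand for 61527 bases by ENSG00000289744, a gene listed at 0.48 and 0.363 TPM. TEN1 rose from 23.84 ± 2.39 to 29.92 ± 1.77 TPM (limma, 0.33, SE 0.0727, adjusted p = 0.00991), though it shares its strand with the readthrough gene TEN1-CDK3 and its value is uncertain. CTC1, the remaining CST subunit, was not called (limma, log2 fold change -0.17, adjusted p = 0.0724), although its groups did not overlap. In this list the groups did not overlap in 4 of 11 genes, beside 29.2% of all genes. They include SHLD1, a shieldin subunit named after its value was seen, at 2.34 ± 0.724 TPM (1.85 to 3.39) and 1.675 ± 0.174 TPM (1.51 to 1.83; limma, -0.42, SE 0.201, adjusted p = 0.154).

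Break sensing held 1 increased and 0 decreased genes of 8 (limma), beside 8.61% and 17.6% of all genes. At an unadjusted p under 0.05, 2 of 8 passed, beside 38.6% of all genes. The same threshold was passed by 5 of 8 genes of accessory end processing, 4 of 11 of end protection and 4 of 7 of alternative end joining. Over the 4 lists together 15 of 34 passed. MDC1, which reads phosphorylated H2AX beside a break, rose from 34.69 ± 4.14 to 43.75 ± 3.09 TPM (limma, log2 fold change 0.34, SE 0.0809, adjusted p = 0.0141), although the groups overlapped.

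Alternative end joining, the microhomology-based route, held 0 increased and 2 decreased genes of 7, beside 8.61% and 17.6% of all genes. RBBP8, which encodes the resection factor CtIP, fell from 38.13 ± 0.822 to 30.36 ± 2.40 TPM (limma, log2 fold change -0.33, SE 0.0546, adjusted p = 0.00239). POLQ, the polymerase of this route, fell from 8.17 to 7.02 TPM (limma, -0.22, adjusted p = 0.0275), and was named after its value was seen. TDP2, STN1, TEN1, MDC1 and RBBP8 kept their calls under all 20 alternatives; they are the called genes with the smallest p in their lists, and CYREN, SETMAR and POLQ were not followed across settings.

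**Figure D5:**
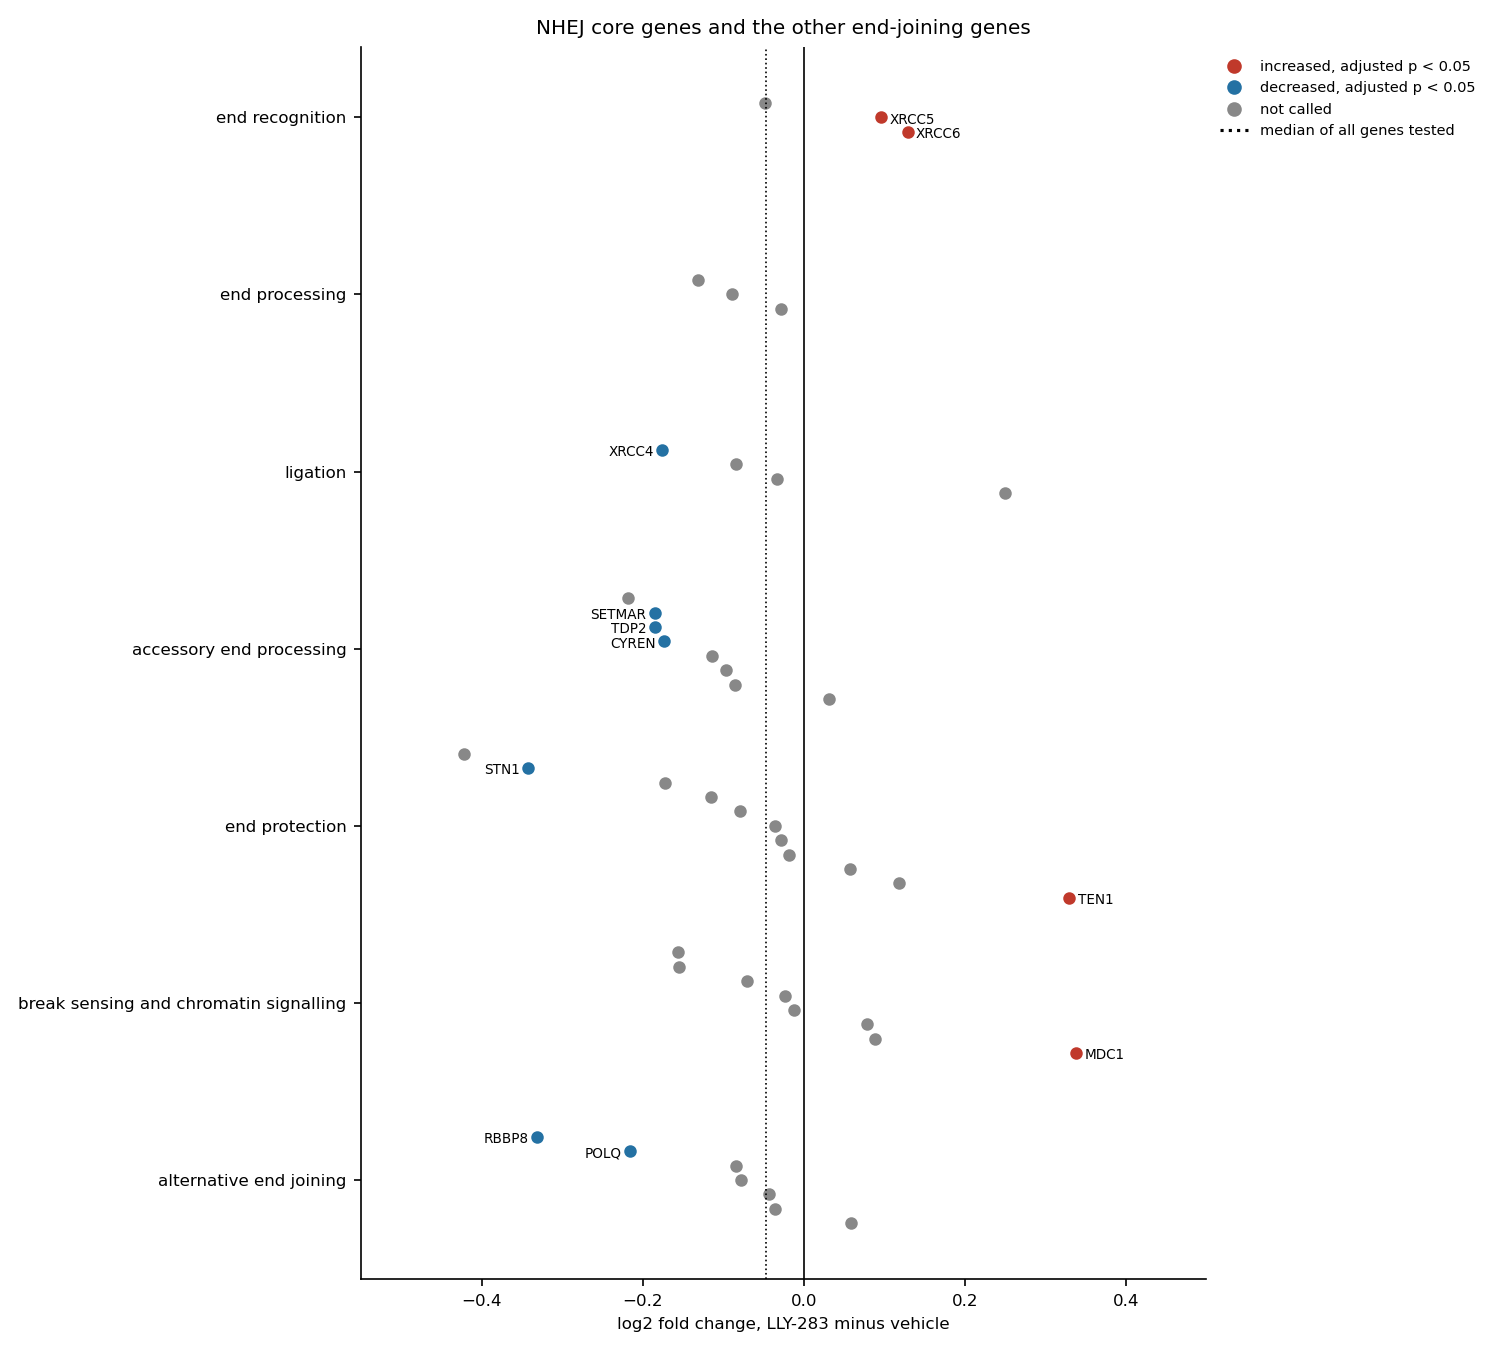
Log2 fold change, LLY-283 minus vehicle (x axis), of the NHEJ core genes (upper 3 rows) and of the 34 other genes tested (lower 4 rows), 1 point per gene. Called genes are coloured and named; the dotted line is the median of all genes tested, -0.047.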

How the data were processed

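RNA was measured by mRNA sequencing in 4 vehicle and 4 LLY-283 libraries of U251 cells. The authors deposited a table of gene TPM made with STAR and RSEM on GRCh38 with GENCODE 41; the submitters' processing notes name STAR 2.7.0f, RSEM 1.3.1 and cutadapt 1.18, and the study's methods give other versions of STAR and RSEM. Values were used as deposited, rounded to 2 decimals; depth is not known.

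Genes averaging 1 TPM or more were tested with limma 3.58.1 (R 4.3.3) on log2(TPM + 0.1), with a mean-variance trend, no block and Benjamini-Hochberg adjustment over 14478 genes; the fit was tested on simulated data. Fold changes on this scale understate changes of low genes. The 6 ratios used a two-sided exact permutation test over 70 splits. Gene positions came from GENCODE 44, matched by identifier.

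Genes and lists were chosen with earlier results of these data known. Named were all 10 NHEJ genes, the called gene with the smallest p in each direction of each list, the 3 genes most correlated with each called NHEJ gene, and genes overlapping or head to head within 1000 bases. A gene that this rule named is not reported here. Alternatives covered pseudocount, filter, scaling, moderation, mitochondrial genes, GC content and length, a replicate block and leaving out each library.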

Additional observations from a re-analysis of the deposited data

Results flagged for a closer look

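Of 54 sets of 4 values tested for a library far from the other 3, 3 stood out, where chance gives about 1 in 20. PRKDC was lowest in vehicle replicate 1, at 120.3 TPM, with the other vehicle libraries at 134 to 135.5 TPM. DCLRE1C was highest in vehicle replicate 3, at 4.1 TPM, with the others at 3.63 to 3.69 TPM. MDC1 was highest in the same library, at 40.84 TPM, with the others at 32.11 to 33.4 TPM.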

How the results depend on the processing

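The count of increased NHEJ genes, 2, became 0 with no filter on low values, 0 without the mean-variance trend and 1 with the trend over GC content and length removed, and 3 under quantile normalization; 2.96%, 7.16%, 9.66% and 12.9% of all genes were increased at these settings. Leaving out 1 library gave 0 to 2. The count of decreased genes, 1, became 0 with no filter, quantile normalization or median-of-ratios scaling (6.49%, 12.6% and 12.9% of all genes), and 0 to 1 with 1 library left out. Without a filter 31471 genes were tested in place of 14478. With a change over 1.5-fold also required, the count was 0. The decreased genes of the other lists, 6, ranged from 4 to 10 with 1 library left out, and were 10 without LLY-283 replicate 4.

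Deviations from the group means correlated from -0.0851 to 0.032 between samples with the same number, and from -0.213 to 0.201 between samples with different numbers. The labels do not say whether samples with the same number were set up together, and these few correlations cannot decide it. With a replicate block the counts of increased and decreased NHEJ genes were 0 and 0 (7.56% and 15.2% of all genes), with limma adjusted p of 0.0668 for XRCC5, 0.0549 for XRCC6 and 0.0848 for XRCC4. With the block and the GC content and length trend removed together, they were 1 and 0 (7.95% and 16.5%).

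Values that changed sign, none of them called in either analysis, were as follows. Under quantile normalization DCLRE1C was 0.047, POLL 0.046, LIG4 0.111 and DPCD 0.016 on the log2 scale. Under median-of-ratios scaling POLL was 0.016, LIG4 0.010 and DPCD 0.033. With the GC content and length trend removed DPCD was 0.044, with and without the block. With 1 library left out POLM ranged from -0.139 to 0.031, LIG4 from -0.08 to 0.033, DPCD from -0.057 to 0.027 and the log2 ratio of POLM to POLL from -0.138 to 0.058. Apart from fewer genes or fewer samples, the cause was not tested. DCLRE1C and ABHD13 were not tested with a minimum of 5 TPM.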
